A study of Mus musculus with 18 samples.

Results

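The cytosolic ribosome of the mouse colon is described here through the genes for its own proteins. The genes were taken by name, as every symbol of the count table made of Rpl or Rps, a number and at most a closing a or x, which left out the copies listed as pseudogenes. The rule found 72 of 45777 genes, 43 for the large subunit (Rpl) and 29 for the small subunit (Rps). All 72 were among the 18848 genes with enough counts to be tested, and the lowest count of any of them in any library was 4121. The rule reads names and no measured values.

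RNA came from the whole colon. All mice were germ-free males on C57BL/6J, 8 weeks of age. The 18 libraries formed 6 groups of 3 biological replicates, lettered A, B and C. DKO mice (Lao1-/- Il4i1-/-), LAO1KO mice (Lao1-/-) and wild-type (WT) mice each had either 2.5% dextran sulfate sodium (DSS), which injures the colonic epithelium, in their drinking water for 24 hours, or normal sterile water. The products of Lao1 and Il4i1 are L-amino acid oxidases, which turn amino acids into keto acids with hydrogen peroxide as a by-product. How the alleles were made is not given in the sources used here.

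Each ribosome is built from ribosomal RNA and a single copy of most ribosomal proteins, so the cell makes these proteins in matched amounts. Their mRNAs are abundant, short and stable, and in mammals most of them start with a stretch of pyrimidines, the TOP motif, through which the kinase mTORC1 and the RNA-binding protein Larp1 control their translation. That control acts on ribosome loading and does not have to show in the amount of mRNA, which is all that was measured.

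Libraries held 26003174 to 36553193 counts. Colon epithelium markers (Epcam, Cdh1, Krt8, Krt20, Vil1, Car1 and Slc26a3) summed to at least 10421 CPM in every library, and smooth muscle markers to 1500 to 5849 CPM, where CPM is the library-scaled count (TMM factors). The Il4i1 genotype could be seen for 5 of the 6 DKO libraries, which had 0 counts of Il4i1 and the overlapping model Il4i1b. The remaining DKO library had 12 counts, as had the lowest LAO1KO library. Counts were 12 to 66 in the 6 LAO1KO libraries and 25 to 57 in the 6 WT libraries. Lao1 had 0 to 10 counts in DKO, 0 to 10 in LAO1KO and 0 to 4 in WT libraries, which is too few to check that label. One library stood apart for the ribosomal protein genes, LAO1KO water replicate A, and results that rest on it are given with and without it. It was singled out by its high level of these same genes. As it is a water library, leaving it out raises their changes with DSS, so counts without it are a description only. Letters A, B and C were not taken to pair libraries across groups, since the labels state no block. In whole tissue, fewer cells of a type and less RNA per cell cannot be told apart.

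Ribosomal protein mRNAs filled 2.64 to 4.95% of all counts of a library. Single genes averaged 240.4 to 926.5 CPM over the 18 libraries, with a median of 520.6 CPM, so the most and the least counted gene were 3.85-fold apart. Per kilobase of transcript the median was 691.8 CPM, with 651.3 for the large and 760.1 for the small subunit genes. Highest per kilobase were Rps24 at 1765 CPM, Rps12 at 1519, Rpl13a at 1457, Rpl41 at 1293 and Rps29 at 1241. Lowest per kilobase were Rps15a at 63.1 CPM, Rps20 at 121, Rpl22 at 130, Rpl5 at 287 and Rps16 at 350. The low end depends on the annotation, since the median annotated transcript of Rps15a is 5130 bases long and that of Rps20 is 3706, against a median of 723.5 bases over the 72 genes.

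The genes moved together from library to library. Over all 2556 pairs of genes the Pearson correlation of log2 CPM over the 18 libraries had a median of 0.82, with a range of -0.12 to 0.98. After subtraction of each group's mean the median was 0.89, so genes also moved together among libraries of 1 group. Large and small subunits stayed level, with the mean log2 CPM of Rpl genes 0.01 to 0.10 below that of Rps genes in every library. All genes of a library share its scaling factor, so these correlations are a description. Their mean level, taken as log2 CPM, was highest in LAO1KO water replicate A at 9.40, and the other 2 libraries of that group stood at 8.66 and 8.77. It was lowest in DKO water replicate C at 8.43, against 8.92 and 8.82 in its group. The range within the water groups of both knockouts was therefore wider than any difference between group means.

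**Figure D1:**
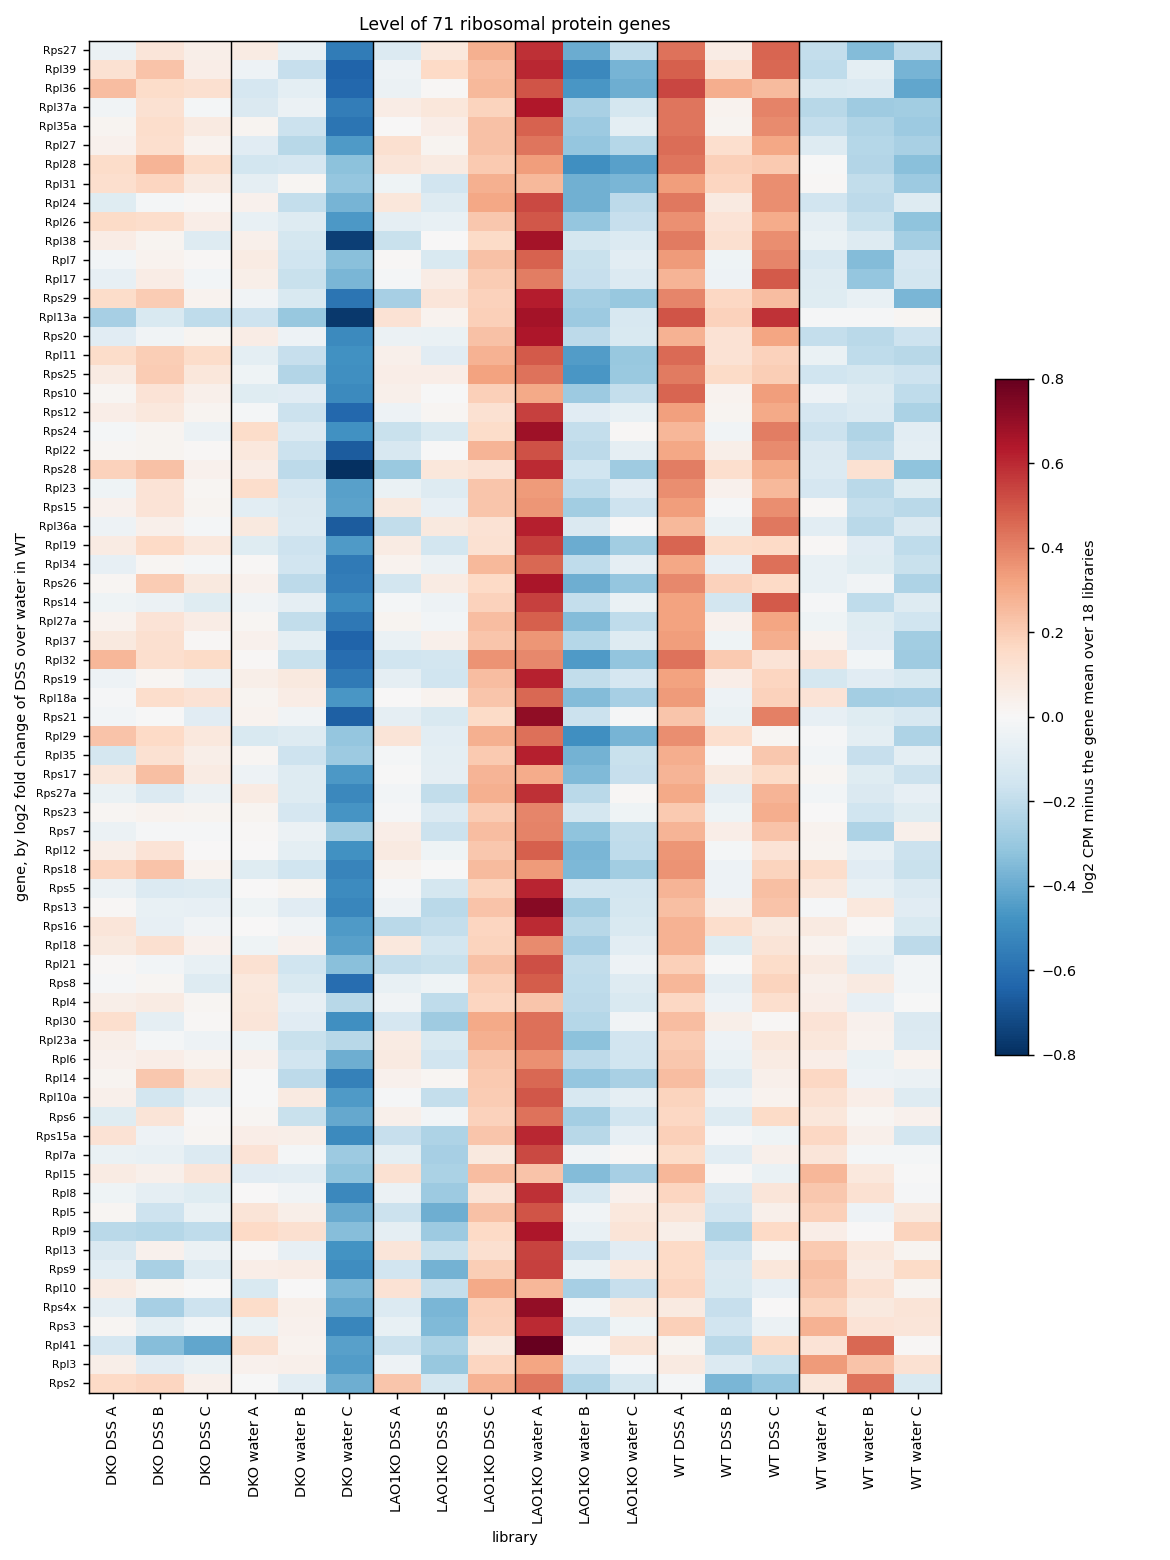
Each row is 1 gene, for 71 of the 72, ordered by its log2 fold change of DSS over water in WT, and each column is 1 library. Colour is log2 CPM minus the gene's mean over the 18 libraries, and whole columns are red (LAO1KO water A) or blue (DKO water C) across nearly all rows.

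Set against water, DSS gave small positive log2 fold changes for most ribosomal protein genes in DKO and WT mice, and few of them passed the test. As log2 CPM, the mean of the 72 genes was 8.93, 8.96 and 8.91 in DKO DSS libraries (replicates A, B and C), against 8.92, 8.82 and 8.43 in DKO water libraries. It was 8.88, 8.81 and 9.13 in LAO1KO DSS libraries, against 9.40, 8.66 and 8.77 in LAO1KO water libraries. It was 9.20, 8.92 and 9.12 in WT DSS libraries, against 8.92, 8.84 and 8.78 in WT water libraries. DSS and water libraries overlapped in every genotype. In DKO and WT the overlap was a narrow one between a single pair of libraries, and in LAO1KO the highest library was a water one.

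In WT the direction depended on what the counts were scaled to. As a share of all counts the genes took 3.30 ± 0.63% in WT DSS and 3.91 ± 0.23% in WT water libraries (SD, n = 3 each), a lower mean with DSS from groups that overlapped. When the 13 mRNAs encoded by the mitochondrial genome were left out of the total, the shares were 4.89 ± 0.38% in WT DSS and 4.24 ± 0.25% in WT water libraries, with all WT DSS libraries above all WT water libraries. Those mitochondrial mRNAs took 32.7 ± 10.6% of all counts in WT DSS and 7.88 ± 1.11% in WT water libraries, and all 13 of 13 rose with DSS in WT and averaged over the 3 genotypes in edgeR's quasi-likelihood test at an adjusted p under 0.05. TMM scaling, used below, sets the middle of all genes near 0. With scaling to library totals the median of all tested genes fell by 0.42 on the log2 scale in WT, and the 72 genes had a median of -0.15, which is 0.27 above it. The part of the mitochondrial share in the ribosomal protein values was not tested.

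**Figure D2:**
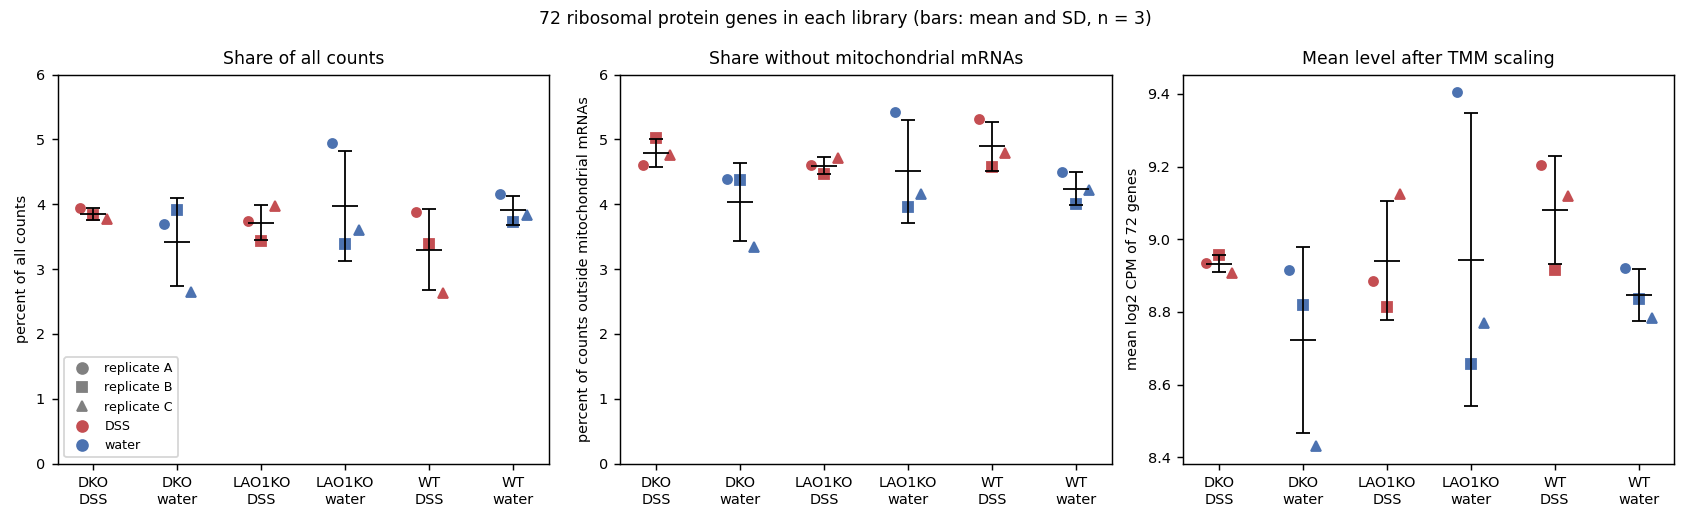
The share of all counts (left), the share of counts outside mitochondrial mRNAs (middle) and the mean log2 CPM after TMM scaling (right) of the 72 genes are shown for each library, with DSS in red and water in blue. Bars give the mean and SD of 3 libraries, and WT DSS libraries sit below WT water libraries on average on the left (3.30 against 3.91%) and above them in the middle (4.89 against 4.24%).

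Averaged over the 3 genotypes, 5 of the 72 genes were higher with DSS and 0 were lower at an adjusted p under 0.05 (edgeR's quasi-likelihood test). At an unadjusted p under 0.05, 18 were higher and 1 lower. Of all 18848 genes tested, 6.72% were higher and 9.18% lower in edgeR, so the members' count is near the background. DESeq2 called 10 higher and 0 lower, where 8.95% of all genes were higher and 12.2% lower. Positive fold changes were found for 59 of the 72 genes, with a median log2 fold change of 0.15 beside 0.03 for all genes and a range of -0.31 to 0.39. Without LAO1KO water replicate A, 32 of the 72 genes were higher and 0 lower, 20 of the large and 12 of the small subunit. Of 19196 genes tested 7.17% were higher, and the median of the 72 genes was 0.23. That water library had the highest level of these genes, so a rise in their fold changes without it was fixed in advance. Without DKO water replicate C, the library with the lowest level, the median was 0.10. Leaving out any other single library gave 1 to 4 higher genes, with 1 without DKO DSS replicate B. Scaled to library totals, 0 were higher and 4 lower (Rpl41, Rpl9, Rps4x and Rps9), where 1.68% of all genes were higher and 20.9% lower and the median of all genes was -0.14.

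Rpl28, a large subunit protein found in eukaryotes (chromosome 7, 4792965 to 4794547, GRCm38.p6), was among the genes that rose. It had 607.7, 663.5 and 608.1 CPM in DKO DSS libraries, against 495.4, 499.8 and 438.4 CPM in DKO water libraries. In LAO1KO the values were 588.1, 577.5 and 634.0 CPM with DSS, against 693.7, 390.2 and 407.1 CPM with water. In WT they were 739.9, 627.6 and 634.5 CPM with DSS, against 547.9, 466.9 and 436.3 CPM with water. DSS and water were apart in DKO and WT, while LAO1KO water replicate A lay above all 3 LAO1KO DSS libraries. The log2 fold change over the genotypes was 0.38 ± 0.10 (SE), with an adjusted p of 0.0227 in edgeR's quasi-likelihood test with Benjamini-Hochberg adjustment, and the adjusted p was 0.0516 without DKO DSS replicate B.

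Rpl36, Rpl27 and Rps25 also rose and lay closer to the threshold. Rpl36, of the large subunit, had 266.1 to 289.0 CPM in DKO DSS and 157.8 to 231.1 CPM in DKO water libraries, and 289.8 to 352.1 CPM in WT DSS and 182.5 to 226.0 CPM in WT water libraries, with a log2 fold change of 0.38 ± 0.12 (SE, edgeR adjusted p = 0.0449). Rpl27, of the large subunit, had a log2 fold change of 0.31 ± 0.10 (SE, edgeR adjusted p = 0.0355). Rps25, a small subunit protein that viral internal ribosome entry sites need, had 0.33 ± 0.11 (SE, edgeR adjusted p = 0.0497). For Rpl36, Rpl27 and Rps25 the DKO and the WT libraries with DSS were all above those with water, and LAO1KO water replicate A was above all 3 LAO1KO DSS libraries. Leaving out 1 library at a time ended the call of Rpl36 in 15 of 18 fits, of Rps25 in 16 and of Rpl27 in 9. With library totals none of the 5 genes that rose passed.

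Genotype by genotype, 0 of 72 genes passed in DKO mice, where 0.0159% of all genes were called, and 0 passed in LAO1KO mice, where 0.196% were called (edgeR). DESeq2 called 0 in both as well, where 0.175% of all genes were higher and 0.748% lower in DKO. In LAO1KO these shares were 0.764% and 2.81%. In edgeR 2 of the 72 genes in each genotype had an unadjusted p under 0.05. Those with the smallest p in DKO were Rpl28 at a log2 fold change of 0.39 (edgeR adjusted p = 0.511), Rps18 at 0.39 (0.512) and Rpl36 at 0.43 (0.538). In LAO1KO they included Rpl41 at -0.49 (edgeR adjusted p = 0.288) and Rps4x at -0.37 (edgeR adjusted p = 0.369). In WT mice 1 of 72 was higher, where 6.29% of all genes were higher. Without LAO1KO water replicate A, which here enters only through the shared spread, the scaling and the filter, 16 of 72 were higher in WT, where 7.7% of all genes were. The WT count was 0 without WT water replicate B or WT DSS replicate A. Medians of the log2 fold change were 0.19 in DKO, -0.02 in LAO1KO and 0.30 in WT, and the LAO1KO median was 0.21 without LAO1KO water replicate A. Scaled to library totals, 11 genes were lower with DSS in WT and 0 higher, among them Rpl3, Rps2 and Rpl41, where 31% of all genes were lower and 1.24% higher.

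**Figure D3:**
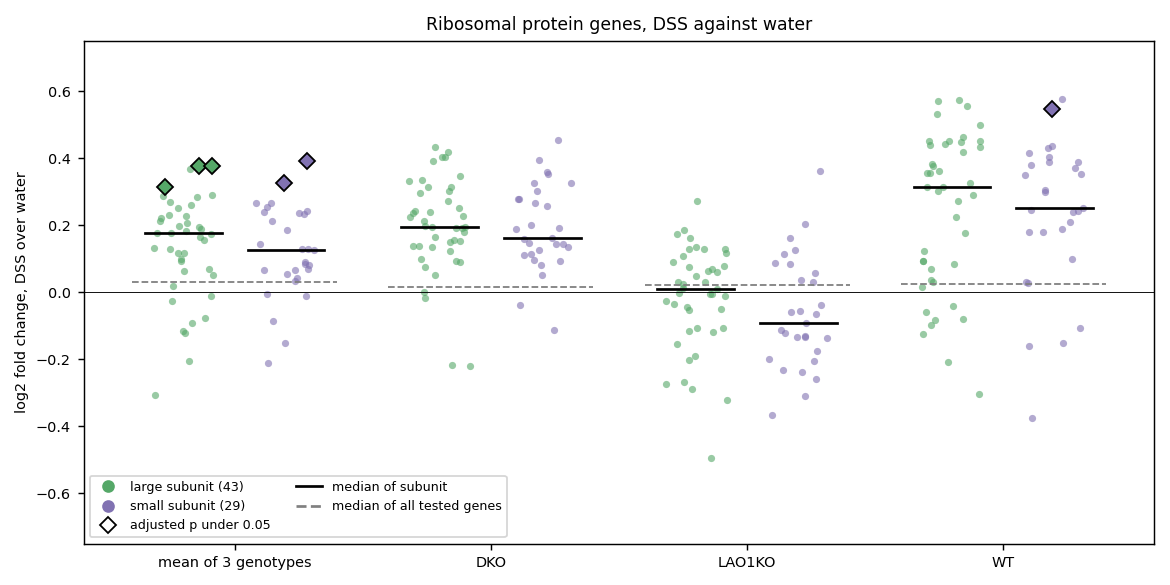
Each point is the log2 fold change of 1 gene, DSS over water, for the mean of the genotypes and for DKO, LAO1KO and WT. Black lines mark the median of each subunit, dashed lines that of all tested genes and diamonds the genes with an adjusted p under 0.05, with medians over the 72 genes of 0.19 in DKO, -0.02 in LAO1KO and 0.30 in WT.

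Genes whose DSS and water libraries do not overlap were also counted, without a model. In DKO 24 of 72 genes (33.3%) had all DSS libraries above all water libraries, as did 8.39% of all tested genes. In LAO1KO 0 of 72 did, as did 9.3% of all genes. Without LAO1KO water replicate A, singled out by its high level of these genes, 41 of 72 (56.9%) did, as did 17.2% of all genes. In WT 36 of 72 (50%) did, as did 18% of all genes. Of the genes set apart in this way, 18 were shared by DKO and WT, 75% of the DKO and 50% of the WT genes. How many of all tested genes were shared in this way was not counted. The 72 genes also moved together, so this overlap is a description only. Without DKO water replicate C, 24 of 72 were higher and 9 lower in DKO, where 14.7% of all genes were higher and 17.1% lower. Scaled to library totals the DKO count stayed at 24 higher and 0 lower, where 7.42% of all genes were higher and 9.48% lower. The WT count became 0 higher and 23 lower, where 3.44% of all genes were higher and 39.8% lower.

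Fold changes with DSS were larger for genes with shorter transcripts over the genotypes and in WT. Across the 72 genes the log2 fold change over the genotypes fell with transcript length, with a Spearman rho of -0.46, and in WT the rho was -0.49. Across 17156 other genes with a length, rho was -0.17 over the genotypes and -0.31 in WT. Genes outside the list with transcripts under 1000 bases had a median log2 fold change of 0.15 over the genotypes and 0.31 in WT, beside 0.15 and 0.30 for the ribosomal protein genes. Genes with transcripts over 4000 bases had medians of -0.03 and -0.17. In DKO rho was -0.39 across the 72 genes and -0.07 across other genes. In LAO1KO it was -0.15 across the 72 genes and 0.05 across other genes, whose medians were -0.0039 for short and 0.05 for long transcripts. Genes are not independent replicates, so these rho values describe the libraries and carry no p.

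The same length measure followed the ribosomal protein level from library to library. Each gene's log2 CPM was first centred on its own mean over the 18 libraries. For each library the median of these values over genes under 1000 bases minus that over genes over 4000 bases was taken. The 72 genes and the mitochondrial mRNAs were left out. It was -0.07 to 0.03 in DKO DSS and -0.32 to 0.02 in DKO water libraries. It was 0.25 ± 0.13 in WT DSS and -0.21 ± 0.03 in WT water libraries (SD, n = 3 each), so the WT libraries with DSS were all above those with water. LAO1KO water replicate A had the highest value, 0.54, and DKO water replicate C the lowest, -0.32, and these 2 were also the highest and the lowest in ribosomal protein mRNA. Pearson's r between the measure and the mean of the 72 genes was 0.88 and Spearman's rho 0.71 over 18 libraries. Without LAO1KO water replicate A and WT DSS replicate C, r was 0.81 and rho 0.60. Within DSS libraries r was 0.83 and rho 0.63 (n = 9). Within water libraries r was 0.88 and rho 0.43 (n = 9), and without LAO1KO water replicate A r was 0.57 and rho 0.19 (n = 8), so among water libraries the relation rests largely on that library. The points share scaling and depth, and the part of RNA quality or of cell makeup in the relation was not tested.

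A small set of genes went its own way. The SD of log2 CPM relative to the mean of the 72 genes in the same library was 0.05 to 0.26, with a median of 0.10. It was largest for Rpl41 (0.26), Rps2 (0.23), Rpl9 (0.20), Rps4x (0.19) and Rpl3 (0.19). It was smallest for Rpl12 (0.05), Rps23 (0.06) and Rpl27a (0.06), which followed the others in every library. Rpl12 lies at the base of the stalk that recruits elongation factors, and Rps23 at the decoding centre.

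Rpl41, the shortest protein of the ribosome, had 584.9, 506.2 and 481.0 CPM in DKO DSS libraries, against 700.6, 655.9 and 475.0 CPM in DKO water libraries. It had 569.0, 538.3 and 679.3 CPM in LAO1KO DSS libraries, against 1183.1, 642.3 and 689.5 CPM in LAO1KO water libraries. It had 653.3, 553.9 and 715.6 CPM in WT DSS libraries, against 693.9, 881.3 and 645.3 CPM in WT water libraries. Groups overlapped in each genotype, and Rpl41 had the most negative log2 fold change of the 72 genes, -0.31 ± 0.13 (SE, edgeR adjusted p = 0.101).

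Rpl3, next to the catalytic centre of the large subunit, and Rps4x, an X-linked small subunit protein, were the only 2 of 72 genes with all WT DSS libraries below all WT water libraries, as were 15.8% of all tested genes. Rpl3 had 585.8, 517.0 and 492.9 CPM in WT DSS libraries, against 706.7, 654.0 and 607.2 CPM in WT water libraries, a log2 fold change of -0.30 ± 0.16 (SE, edgeR adjusted p = 0.231). In DKO it had 576.0, 524.7 and 537.1 CPM with DSS, against 572.2, 573.6 and 409.1 CPM with water, and these overlapped. Rps4x had 635.8, 532.3 and 605.1 CPM in WT DSS libraries, against 685.0, 636.9 and 648.1 CPM in WT water libraries, and the nearest pair almost touched.

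Rps2, at the entry of the mRNA channel, had the smallest p of the 72 genes in the interaction of DSS with DKO against WT. It had 854.3, 860.5 and 787.0 CPM in DKO DSS libraries, against 763.0, 719.3 and 582.0 CPM in DKO water libraries, which did not overlap. In WT it had 754.4, 592.8 and 617.6 CPM with DSS, against 815.1, 1033.7 and 701.3 CPM with water, which did. That interaction was 0.65 ± 0.27 on the log2 scale (SE, edgeR adjusted p = 0.267), which did not pass.

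**Figure D4:**
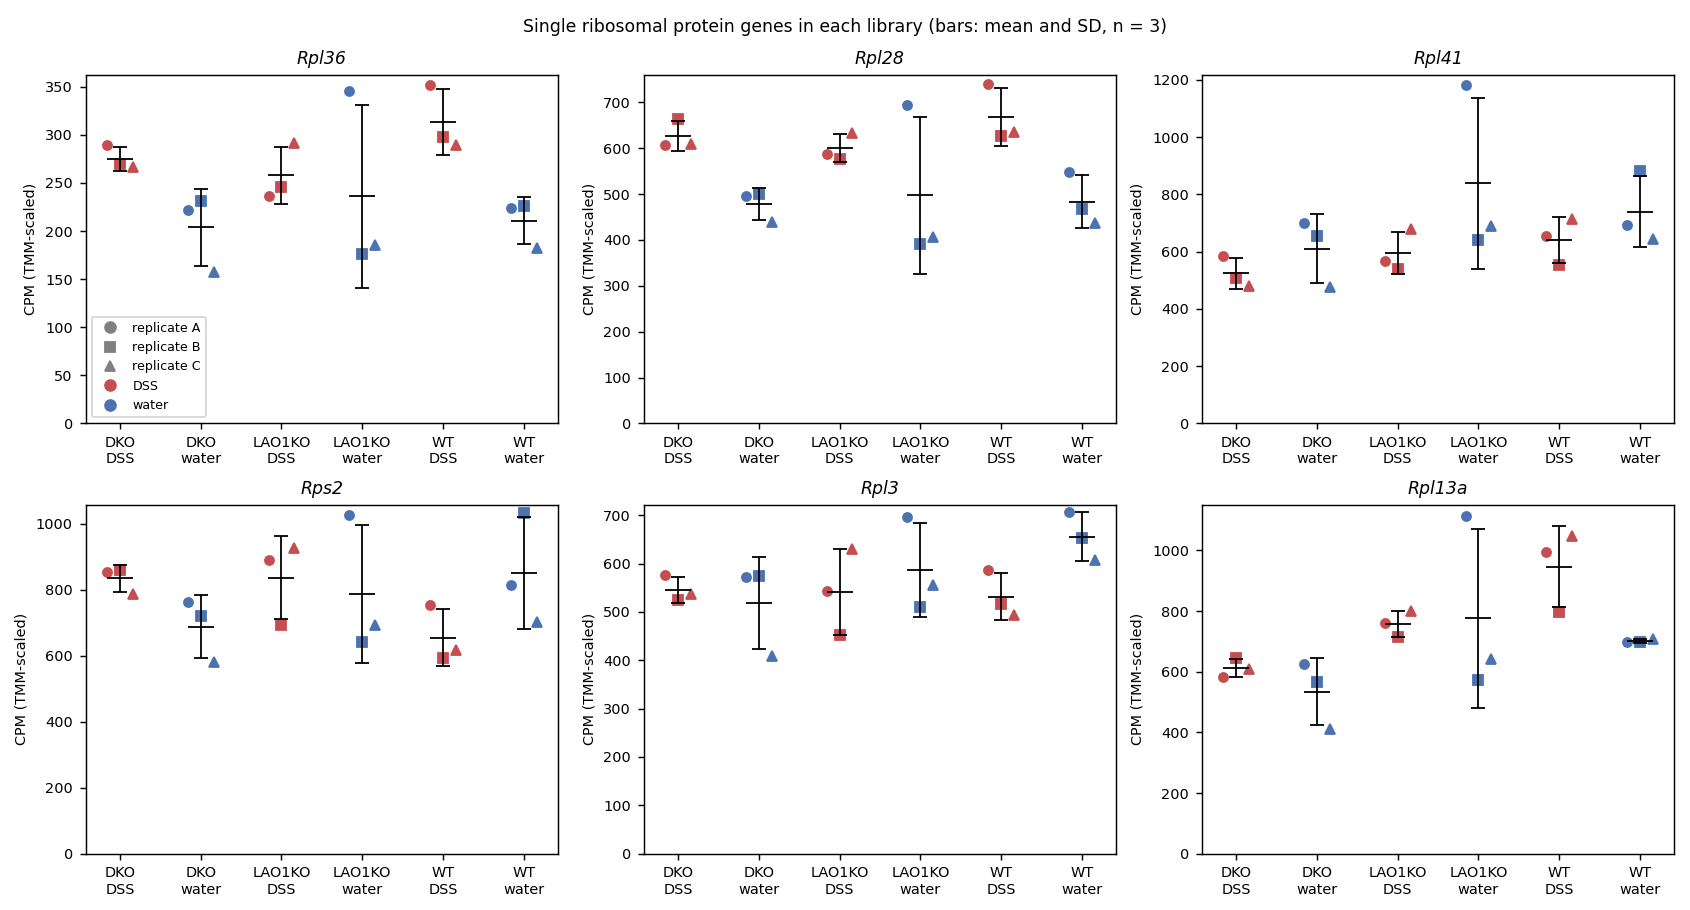
CPM of Rpl36, Rpl28, Rpl41, Rps2, Rpl3 and Rpl13a in each library is shown by group, with DSS (red) to the left of water (blue) and bars for the mean and SD of 3 libraries. Rpl36 and Rpl28 are higher with DSS in DKO and WT, Rpl41 is highest in LAO1KO water A at 1183.1 CPM, and Rpl13a is lowest in DKO.

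Genes with a known role outside the ribosome or in its last steps did not pass over the genotypes in edgeR's quasi-likelihood test over all libraries. Under other settings Rpl11 passed, and Rpl13a passed when LAO1KO water replicate A was left out. Rpl5 and Rpl11 form the particle with 5S RNA that also binds Mdm2 when ribosome assembly fails, and their log2 fold changes were -0.12 ± 0.10 for Rpl5 and 0.31 ± 0.11 for Rpl11 (SE, edgeR adjusted p = 0.445 and 0.0724). Rps6, the substrate of S6 kinase, had 0.09 ± 0.10, and Rpl10, which joins the large subunit late, had 0.06 ± 0.09. Rps27a, made as a fusion with ubiquitin, had 0.07 ± 0.11. Rpl22, needed for T cell development in mice, had 0.19 ± 0.11, and Rpl38, whose loss alters the mouse skeleton, had 0.17 ± 0.12. Rps19, the gene most often mutated in Diamond-Blackfan anaemia, had 0.09 ± 0.12. Rpl13a, which in human cells also represses inflammatory mRNAs after interferon, had 0.20 ± 0.12. Rpl11 passed with DESeq2 (adjusted p = 0.0384) and with a replicate block (edgeR adjusted p = 0.0401). Without LAO1KO water replicate A, Rpl11 (edgeR adjusted p = 0.00175) and Rpl13a (edgeR adjusted p = 0.0204) passed. That water library was singled out by its high level of these genes, so a rise in their fold changes without it was fixed in advance.

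Sequence at the start of these genes was looked at because the genes move together and many carry a TOP motif. RefSeq promoter entries (GRCm38.p6, 250 bases before and 50 from the start) were matched for 53 of the 72 genes by symbol, and motifs were chosen with the sequences in view. The motif CTTTC on the gene strand, in the 40 bases before and 30 bases from the annotated start, was present in 18 of 53 genes (34%), against 9.03% of 27025 promoters in all. On the opposite strand it was present in 5 of 53 (9.4%), against 8.37% of all. Genes with the motif had a median log2 fold change with DSS of 0.17 over the genotypes and those without it 0.13. CCGGAAG, searched on both strands of the 300 bases, was present in 20 of 53 (37.7%), against 9.12% of all, and TATAAA, on both strands, in 4 of 53 (7.5%), against 14.16% of all. A match describes letters and not a bound site, and Rpl36 and Rpl3 were not among the matched genes.

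The windows below hold 3 of the genes that rose with DSS, then 4 genes named for their role or for their steadiness, then 4 of the 5 that varied most against the others. They are 70 bases long, 5′ to 3′ on the gene strand, with the annotated start at base 41 and CTTTC in capitals.
Rpl28, chr7:4792925-4792994, plus strand: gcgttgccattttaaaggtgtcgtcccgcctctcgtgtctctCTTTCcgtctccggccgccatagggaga
Rpl27, chr11:101442205-101442274, plus strand: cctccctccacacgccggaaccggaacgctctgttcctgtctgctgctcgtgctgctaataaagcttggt
Rps25, chr9:44407674-44407743, plus strand: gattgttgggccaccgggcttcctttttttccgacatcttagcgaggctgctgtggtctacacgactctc
Rps6, chr4:86857338-86857407, minus strand: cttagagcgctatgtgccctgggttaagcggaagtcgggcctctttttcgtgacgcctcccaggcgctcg
Rpl38, chr11:114668540-114668609, plus strand: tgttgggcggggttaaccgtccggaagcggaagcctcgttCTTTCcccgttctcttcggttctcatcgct
Rpl13a, chr7:45128716-45128785, minus strand: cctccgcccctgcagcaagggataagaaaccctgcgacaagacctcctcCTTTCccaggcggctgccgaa
Rpl27a, chr7:109519155-109519224, plus strand: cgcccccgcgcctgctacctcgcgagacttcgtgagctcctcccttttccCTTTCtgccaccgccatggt
Rpl41, chr10:128549139-128549208, minus strand: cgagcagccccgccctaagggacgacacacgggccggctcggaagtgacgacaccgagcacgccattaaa
Rps2, chr17:24720023-24720092, plus strand: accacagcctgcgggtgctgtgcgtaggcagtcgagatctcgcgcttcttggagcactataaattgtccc
Rpl9, chr5:65391402-65391471, minus strand: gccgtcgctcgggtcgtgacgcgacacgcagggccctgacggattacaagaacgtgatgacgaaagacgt
Rps4x, chrX:102189362-102189431, minus strand: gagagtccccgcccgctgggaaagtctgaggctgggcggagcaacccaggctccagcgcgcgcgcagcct
The capitals appear in Rpl28, Rpl38, Rpl13a and Rpl27a and in none of the windows of Rpl27, Rps25, Rps6, Rpl41, Rps2, Rpl9 and Rps4x. By these letters alone, genes that rose stand on both sides. Rps6 and Rps25 have runs of pyrimidines that these letters do not match, at the annotated start in Rps6 and before it in Rps25.

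Between genotypes, 0 of the 72 genes passed in each of the comparisons below in edgeR's quasi-likelihood test at an adjusted p under 0.05. DESeq2 called 1, Rpl13a, for DKO against WT over both treatments and 0 in the others. The shares of all genes below are edgeR's. Those of DESeq2 are not given here, so its 1 call is not set against a background. For DKO against WT, 0 of 72 passed under water, under DSS and over both treatments, where 0.621%, 0.255% and 0.562% of all genes passed. For LAO1KO against WT, 0 of 72 passed, where 0.0531% passed under water, 0.0849% under DSS and 0.133% over both treatments. For DKO against LAO1KO, 0 of 72 passed, where 0.0796%, 0.0637% and 0.239% did in the same order. The interactions of DSS with genotype gave 0 of 72 for DKO against WT, where 0.0584% of all genes passed, and 0 of 72 for LAO1KO against WT, where 0% did. At an unadjusted p under 0.05 there was 1 gene for DKO against WT and 1 for DKO against LAO1KO over both treatments, 1 for DKO against WT under DSS, 3 for DKO against LAO1KO under water, 2 for the LAO1KO interaction, 1 for the DKO interaction and 0 in the others. Median log2 fold changes of the 72 genes over both treatments were -0.12 for DKO against WT, 0.00 for LAO1KO against WT and -0.13 for DKO against LAO1KO. For DKO against WT 71 of 72 log2 fold changes were negative, but with library totals the median was 0.02, beside 0.14 for all genes. The comparisons share libraries, so their values are not independent.

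Genes with the smallest p in each comparison between genotypes, up to 3, are given here as log2 fold changes, with edgeR's adjusted p of the first. For DKO against WT they were Rpl3 (-0.34, adjusted p = 0.297), Rpl13a (-0.39) and Rpl15 (-0.28) under water, and Rpl13a (-0.63, adjusted p = 0.367), Rps2 (0.35) and Rpl24 (-0.33) under DSS. Over both treatments they were Rpl13a, Rpl41 (-0.28) and Rps9 (-0.23). For LAO1KO against WT they were Rpl37a (0.40, adjusted p = 0.368), Rps12 (0.33) and Rps24 (0.38) under water, and Rps2 (0.35, adjusted p = 0.823), Rpl13a (-0.32) and Rpl38 (-0.31) under DSS. Over both treatments they were Rpl15 (-0.13, adjusted p = 0.996), Rpl31 (-0.11) and Rps2 (0.12). Rpl13a came first in all 3 comparisons of DKO with LAO1KO, at -0.54 under water (adjusted p = 0.801), -0.31 under DSS (adjusted p = 1) and -0.42 over both treatments (adjusted p = 0.596). It was followed by Rps12 (-0.41) and Rpl41 (-0.46) under water, Rpl9 (-0.16) and Rpl41 (-0.18) under DSS, and Rpl41 (-0.32) and Rpl34 (-0.21) over both. The interaction of DSS with DKO against WT was led by Rps2 and Rpl3 (0.38). That with LAO1KO against WT was led by Rps24 (-0.65, adjusted p = 0.288), Rpl38 (-0.64) and Rpl37a (-0.58). Without LAO1KO water replicate A the median of the 72 genes in the LAO1KO interaction was 0.006, against -0.29 with it. In LAO1KO against WT under water it was -0.14 without that library and 0.14 with it, and in DKO against LAO1KO under water -0.0082 and -0.25.

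Rpl13a (chromosome 7, 45125563 to 45128745) had the smallest p of the 72 genes in DKO against WT under DSS and over both treatments. It had 582.9, 644.6 and 608.0 CPM in DKO DSS libraries, against 993.6, 796.3 and 1048.5 CPM in WT DSS libraries. Under water it had 624.3, 567.3 and 411.1 CPM in DKO libraries, against 697.9, 696.3 and 708.0 CPM in WT libraries. DKO libraries were all below WT libraries under both treatments, which held for 1 of 72 genes and 0.69% of all tested genes. Under DSS alone it held for 11 of 72 and 11.6% of all genes, and under water alone for 7 of 72 and 9.86%. In LAO1KO it had 759.6, 714.4 and 799.6 CPM with DSS and 1114.8, 573.1 and 641.9 CPM with water. The log2 fold change of DKO against WT over both treatments was -0.51 ± 0.15 (SE, edgeR adjusted p = 0.216), and with DESeq2 the adjusted p was 0.0349. Il4i1 lies on the same chromosome, at 44836288 to 44840809.

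Other genes of the ribosome and of ribosome production were tested for DSS over the genotypes, as lists chosen with earlier results known. Among ribosomal proteins outside the naming rule, Rplp0, of the stalk, had a log2 fold change of -0.26 ± 0.10 (SE, edgeR adjusted p = 0.0915) and its partner Rplp1 0.17 ± 0.11 (SE, edgeR adjusted p = 0.306), and neither passed. Among 6 tested paralogs of the 9 listed, Rps4l rose by 0.41 ± 0.12 and Rpl7l1 fell by 0.27 ± 0.09 (SE, edgeR adjusted p = 0.0237 and 0.0462), and the call of Rps4l was lost with library totals. Of 24 genes for ribosome assembly and ribosomal RNA synthesis 6 fell and 0 rose, with a median of -0.20. Of all tested genes 9.18% fell and 6.72% rose. Rrp12, for export and maturation of both subunits, had -0.50 ± 0.12, Nolc1, a nucleolar protein, had -0.35 ± 0.11, Dkc1, a pseudouridine synthase, -0.31 ± 0.09 and Ubtf, a factor of RNA polymerase I, -0.25 ± 0.07 (SE, edgeR adjusted p between 0.0104 and 0.0357). When LAO1KO water replicate A was left out 7 of 24 fell. With library totals 11 of 24 fell, where 20.9% of all genes were lower.

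Of 16 genes of the mTORC1 pathway 4 fell and 0 rose. Rptor, the subunit that holds mTORC1 substrates, had -0.52 ± 0.09 (SE, edgeR adjusted p = 0.00202). Deptor, which inhibits mTOR, fell by 0.36 ± 0.08, Mlst8, another mTOR partner, by 0.31 ± 0.09, and Eif4ebp2, a translation repressor, by 0.19 ± 0.06 (SE, edgeR adjusted p between 0.00785 and 0.0489). The call of Eif4ebp2 was lost with TMM factors made without mitochondrial mRNAs and members, which left 3 of 16. Leaving out LAO1KO water replicate A gave 6 of 16 lower. Of 16 other genes whose mRNAs have a TOP motif 0 rose and 1 fell, Eef2, the translocation factor, at -0.33 ± 0.10 (SE, edgeR adjusted p = 0.0286). With library totals 6 of these 16 fell, where 20.9% of all genes were lower. Of 4 p53 pathway genes Trp53 rose by 0.23 ± 0.08 (SE, edgeR adjusted p = 0.0492), a call that was lost without LAO1KO water replicate A, with RLE factors and with library totals. Mdm2 was at -0.07 and Cdkn1a at -0.51 and neither passed. Of 77 mitochondrial ribosomal protein genes 1 rose (Mrpl23) and 4 fell, and of 78 tested genes for nuclear-encoded respiratory chain subunits 1 rose and 2 fell. These counts are read beside 6.72% of all genes higher and 9.18% lower. Without LAO1KO water replicate A the respiratory list had 32 higher and 2 lower and the mitochondrial ribosome list 12 and 6. In that fit 7.17% of all genes were higher, and both counts depended on that library. It was singled out by its high level of ribosomal protein mRNA, and some genes of both lists followed that level. These counts are therefore a description only. With library totals the respiratory list had 0 higher and 10 lower and the mitochondrial ribosome list 0 and 18, where 20.9% of all genes were lower.

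Copies of ribosomal protein genes listed as pseudogenes could share reads with the members, since how multiply mapped reads were counted is not given in the sources used here. Of 214 listed pseudogenes 94 were tested, and their counts were 0.70 to 1.29% of the members' counts in a library. Of the 94, 15 rose and 0 fell with DSS over the genotypes, where 6.72% of all genes were higher and 9.18% lower. In WT 22 rose, where 6.29% of all genes were higher. With library totals 4 rose and 1 fell over the genotypes, where 1.68% of all genes were higher and 20.9% lower. Without LAO1KO water replicate A 29 rose over the genotypes, where 7.17% of all genes were higher. In WT the share was 1.24 ± 0.05% with DSS and 0.88 ± 0.04% with water (SD, n = 3 each).

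Of 7 colon epithelium markers 2 fell with DSS over the genotypes, and their sum was 10421 to 19135 CPM with DSS and 12533 to 24912 CPM with water, highest in LAO1KO water replicate A. Of 3 goblet cell markers 2 rose over the genotypes, and the other had a log2 fold change of -0.29 that did not pass. In WT alone 0 of the 3 rose and 1 fell. Their sum in WT was 4465 to 6915 CPM with DSS and 6811 to 8701 CPM with water. Over the genotypes the neuron markers Tubb3 and Elavl4 rose by 0.89 ± 0.18 and 0.71 ± 0.22 (SE, edgeR adjusted p = 0.00532 and 0.0373). Their sum was 32.5 to 64.1 CPM in DKO DSS and 14.5 to 35.7 CPM in DKO water, 28.1 to 51.9 CPM in LAO1KO DSS and 15.8 to 27.6 CPM in LAO1KO water, and 37.4 to 44.3 CPM in WT DSS and 18.3 to 25.9 CPM in WT water libraries. The call of Elavl4 was lost with library totals, with no filter and when LAO1KO water replicate A was left out. None of the 3 proliferating cell, 4 smooth muscle, 3 fibroblast, 3 adipocyte, 4 B cell, 3 T cell, 3 macrophage, 3 red cell and 2 plasma cell markers passed over the genotypes. In WT alone 2 of 3 fibroblast and 1 of 3 proliferating cell markers fell, where 6.59% of all genes were lower. The other markers of these lists did not pass in WT. The fibroblast sum in WT was 190.2 to 458.5 CPM with DSS and 460.4 to 765.7 CPM with water. At least 1 adipocyte and 1 B cell marker was at 0 in some libraries. The part of cell makeup in the ribosomal protein values was not tested.

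Outside the list, the genes whose log2 CPM followed the mean of the 72 genes most closely over the 18 libraries were Mrps30 (Pearson's r 0.96), Slirp (0.95), Mrpl52 (0.95), Mcee (0.95), Rpsa (0.94), Ndufb11 (0.94), Psma2 (0.93), Mrpl22 (0.93), Ndufs3 (0.93) and Drap1 (0.93). Rpsa is itself a ribosomal protein, which the naming rule did not take. Mrps30, Mrpl52 and Mrpl22 encode mitochondrial ribosomal proteins, and Ndufb11 and Ndufs3 subunits of complex I. Without LAO1KO water replicate A these r values were 0.90 to 0.94. Those most opposite were Nsd3 (-0.86), Slc10a5 (-0.85), Med13l (-0.84), Mnt (-0.84) and Kdm5d (-0.83), with median annotated transcripts of 2177 to 7781 bases.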

How the data were processed

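Members and gene lists were chosen with earlier results of these data known. The authors deposited 1 table of raw read counts per gene symbol and library. The builds GRCm38 and mm10 are named per the submitters' processing notes, as are R 4.3.2, DESeq2 1.42.1, HISAT2 2.1.0, Trimmomatic 0.38, FastQC 0.11.7 and StringTie 2.1.3b, and per the labels' protocols the libraries were stranded mRNA libraries read as pairs. How multiply mapped reads were counted is not given in the sources used here. Counts were tested in R 4.3.3 with edgeR 4.0.16 (filterByExpr, TMM factors, robust quasi-likelihood fits of 6 group means over all 18 libraries), adjusted by Benjamini-Hochberg within a comparison over 18848 genes, threshold 0.05, without a fold minimum. The fit was checked on simulated data. CPM were computed from the TMM-scaled counts, and log2 CPM used a prior count of 2. Standard errors are the size of the log2 fold change over the root of its F. The smallest library held 26003174 counts, so counting error of these genes is small beside the spread between libraries. Transcript lengths are the lower median of the protein-coding transcripts in the basic set of GENCODE vM21, and positions come from RefSeq GRCm38.p6.

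Genes were named by rule: in each comparison up to 5 higher and 5 lower called members, or the 3 with the smallest p; the 5 highest and 5 lowest levels per kilobase; the 5 most and 3 least variable; 10 members with a known role; the 10 genes outside the list most correlated with the member mean; and up to 4 genes with the smallest p of other lists. Genes lowered under library totals and the 5 most opposed genes were named after their values were seen. Some genes and lists that the rule names are not reported here. Genotype comparisons over both treatments were added after the data were seen. Alternatives were DESeq2 1.42.0, RLE factors, TMM factors without mitochondrial mRNAs and members, no filter, a replicate block, leaving out each library and, added after the data were seen, library totals.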

Additional observations from a re-analysis of the deposited data

How the results depend on the processing

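Library totals turned the direction of the DSS calls: 4 lower and 0 higher over the genotypes and 11 lower and 0 higher in WT, with member medians of -0.02 and -0.15 beside medians over all genes of -0.14 and -0.42. With library totals the member medians were also 0.16 (LAO1KO against WT under DSS), 0.21 (DKO against WT under DSS), 0.12 (interaction, LAO1KO) and 0.40 (interaction, DKO), where all genes had 0.29, 0.36, 0.37 and 0.44. Other settings that moved a count by over 1.5 times were DESeq2 (10 over the genotypes, 4 in WT, 1 for DKO against WT over both treatments), the replicate block (9 and 2) and TMM without mitochondrial mRNAs and members (2 in WT). With DESeq2, 8.95% of all genes were higher over the genotypes and 8.19% in WT, so those counts are not set apart from the background. The 1 call for DKO against WT has no such share beside it. The letters gave 45 same-letter pairs with correlations of -0.30 to 0.32 (median 0.03), of which 13 were over 0.1, and they were not taken to pair libraries. Pairs of different letters were not compared, so pairing is not excluded. Leaving out 1 library gave 1 to 32 calls over the genotypes and, when the library left out was one of the comparison's own, 0 to 1 in WT (6 fits) and 0 in each other comparison. The WT count was 16 without LAO1KO water replicate A. Member medians then ranged from 0.10 to 0.23 over the genotypes, 0.06 to 0.30 in DKO, -0.17 to 0.21 in LAO1KO, 0.19 to 0.34 in WT, -0.14 to 0.28 for LAO1KO against WT under water, -0.38 to -0.0082 for DKO against LAO1KO under water and -0.40 to 0.006 for the LAO1KO interaction. The share without mitochondrial mRNAs in the total was 4.79% in DKO DSS, 4.595% in LAO1KO DSS, 4.89% in WT DSS and 4.24% in WT water. RLE factors and no filter changed no count of called ribosomal protein genes by over 1.5 times. Where no cause is named, the cause was not tested.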
